A study of Mus musculus with 6 samples.

Results

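The IgLON family is a group of 5 genes, Lsamp, Ntm, Opcml, Negr1 and Iglon5. The data were 3 deposited lists of chromatin regions tagged with an antibody to TERT, the catalytic protein of telomerase. The regions taken here were all those that the deposited annotation names for one of the 5 genes. They numbered 88 of 41527 on chromosomes 1 to 19, X and Y, and they lay at Lsamp, Ntm, Opcml and Negr1, with none at Iglon5. The genes were chosen by name with their region counts in these lists known, above all the excess of vehicle regions at Lsamp. The counts below therefore describe the genes and test nothing.

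The assay was CUT&Tag, in which an antibody brings a transposase to the DNA beside a bound protein. It was applied to cultured cortical and hippocampal neurons of C57BL/6 mouse embryos at embryonic day 15 to 18. In 3 samples the neurons were kept for 24 h with 2 µM BIBR1532, which inhibits telomerase, and in 3 samples with the vehicle dimethyl sulfoxide, which another label field calls untreated. The labels do not say whether the samples came from separate cultures, and no input or control-antibody sample is among them.

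The 3 libraries of each condition had been combined before regions were called, so each condition is a single pooled measurement. No value per sample stands behind a region, the depth is unknown, and no test across replicates could be made. Regions with more signal after BIBR1532 make up the BIBR1532 list (16153 regions), those with more signal after vehicle the vehicle list (18562), and those with no call of a difference the common list (6812). Which list belongs to which pool was read from the order of the conditions in the list names, so the direction is likely and not stated outright. Regions of the BIBR1532 and vehicle lists are called condition-specific below. Exact binomial (Clopper-Pearson) intervals at 95% cover counting error only.

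IgLON proteins are small cell adhesion molecules of the immunoglobulin superfamily, held to the outer face of the membrane by a lipid (GPI) anchor. They bind each other in like and unlike pairs and are abundant on neurons, where they are known for roles in neurite outgrowth and synapse formation. Lsamp encodes the limbic system-associated membrane protein, Ntm encodes neurotrimin, Opcml the opioid-binding cell adhesion molecule and Negr1 neuronal growth regulator 1, also called Kilon. Iglon5 is best known in human medicine as the target of autoantibodies in a neurological disease.

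Of the 5 genes, 4 are very long. In RefSeq on GRCm38.p6, the assembly called mm10 in the files, Lsamp spans 2197 kb on chromosome 16, Opcml 1135 kb and Ntm 969 kb on chromosome 9, and Negr1 755 kb on chromosome 3. Iglon5 spans 17.3 kb on chromosome 7. Opcml and Ntm are neighbours that are transcribed towards each other, with 69.3 kb between their ends, so the nearest start site decides which of them a region between them is named for.

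Start sites of Opcml and Lsamp carried the family's signal closest to a start, and their promoter sequences from RefSeq (GRCm38.p6) are shown for that reason. The windows run from 250 bases before to 50 bases after the start site, 5′ to 3′. In the Opcml window, chr9:27791049-27791348 on the plus strand, capitals mark the 116 bases covered by a common region at chr9:27791233-27791396.
Opcml, upstream start: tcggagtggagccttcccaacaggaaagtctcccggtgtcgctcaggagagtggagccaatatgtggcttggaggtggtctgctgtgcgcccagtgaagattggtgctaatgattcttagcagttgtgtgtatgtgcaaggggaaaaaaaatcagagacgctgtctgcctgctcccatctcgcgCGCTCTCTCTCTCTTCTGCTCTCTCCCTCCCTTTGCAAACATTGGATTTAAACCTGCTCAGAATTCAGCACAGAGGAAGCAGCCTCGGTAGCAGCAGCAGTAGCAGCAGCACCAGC
This start site, at 27791299 on chromosome 9, lies inside the common region. The deposited annotation did not use it: it called the region intergenic and named it for Spata19.

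In the Lsamp windows and in the Negr1 window capitals mark CpG dinucleotides. The Lsamp windows are chr16:39984114-39984413 and chr16:41532576-41532875, both on the plus strand, and the Negr1 window is chr3:156561544-156561843 on the plus strand. They are shown because condition-specific and common regions lay within 1 kb of the Lsamp downstream start and of neither other start.
Lsamp, upstream start: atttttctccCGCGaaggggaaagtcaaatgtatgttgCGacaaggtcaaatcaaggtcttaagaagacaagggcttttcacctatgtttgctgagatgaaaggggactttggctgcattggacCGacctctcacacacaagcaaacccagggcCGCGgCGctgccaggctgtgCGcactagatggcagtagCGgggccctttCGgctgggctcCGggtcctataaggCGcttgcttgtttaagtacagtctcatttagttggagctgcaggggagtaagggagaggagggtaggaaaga
Lsamp, downstream start: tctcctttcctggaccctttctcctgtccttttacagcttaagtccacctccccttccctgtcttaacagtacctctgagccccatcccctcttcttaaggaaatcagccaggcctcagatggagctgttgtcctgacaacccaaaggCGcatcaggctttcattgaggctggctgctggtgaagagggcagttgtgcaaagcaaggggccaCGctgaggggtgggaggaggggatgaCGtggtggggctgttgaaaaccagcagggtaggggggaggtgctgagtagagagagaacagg
Negr1, start: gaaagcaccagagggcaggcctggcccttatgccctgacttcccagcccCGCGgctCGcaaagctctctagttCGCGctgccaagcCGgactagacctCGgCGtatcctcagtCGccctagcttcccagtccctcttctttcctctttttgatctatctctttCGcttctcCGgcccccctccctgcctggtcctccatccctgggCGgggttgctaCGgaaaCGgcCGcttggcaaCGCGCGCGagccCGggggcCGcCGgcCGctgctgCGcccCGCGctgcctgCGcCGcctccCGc
The CpG count was 3 in the Lsamp downstream window, 12 in the Lsamp upstream window, 29 in the Negr1 window and 9 in the Opcml window. Over all 32851 RefSeq promoter windows of this length the median CpG count was 7, and over the 5324 with a common region centred within 1 kb it was 23. The Lsamp window nearest to signal had fewer CpG dinucleotides than most windows with common regions. The Negr1 window, with 29, was not near a region. Windows with a BIBR1532 region centred within 1 kb had a median of 21, as did those with a vehicle region. How CpG count and regions relate was not tested, and the few windows shown cannot tell. Of the windows not shown, those of Ntm had 19 and 2 CpG dinucleotides and that of Iglon5 had 16. A BIBR1532 region was centred 1486 bp past the Ntm start with 19 and 2253 bp past the one with 2.

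Promoter windows from RefSeq were searched at 7 of the family's 9 start sites, and the downstream Opcml start and the first Ntm start were not analysed for sequence here. None of the 7 windows held the telomere repeat TTAGGG, the E-box CACGTG or CTTTGA, the core bound by TCF/LEF factors, on either strand. These letters occurred in 10.6%, 7.15% and 16.0% of all promoter windows.

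Opcml had the family's closest regions to a start site. At its upstream start the common region, 164 bp wide with an authors' score of 0.306, was flanked by 3 BIBR1532 regions. They were centred 442 bp before the start (chr9:27790755-27790960, score 4.03), 697 bp after it (chr9:27791832-27792161, score 9.06) and 2946 bp after it (chr9:27794089-27794402, score 10.5). The nearest vehicle region was 23.4 kb away. A lncRNA gene, Gm39314, overlaps the beginning of Opcml and covers the BIBR1532 region before the start, so this region cannot be given to either gene alone.

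The downstream start of Opcml, at 28404328 on chromosome 9, showed the opposite list. This is the start of the transcript that the deposited annotation used. Its neighbours were 2 vehicle regions, one centred 563 bp before the start (chr9:28403602-28403929, the family's single region of the promoter class, of which 7.37% of protein-coding genes had one in the vehicle list) and one 225 bp after it (chr9:28404457-28404649, in the first intron). Both had a score of 5.19, the most frequent score of the vehicle list. The nearest BIBR1532 region was 278 kb away and the nearest common region 613 kb away.

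Along the body of Opcml, BIBR1532 regions lay towards the upstream start and vehicle regions further down. Before the midpoint of the gene body there were 8 BIBR1532 and 2 vehicle regions, and past it 1 BIBR1532 and 8 vehicle regions. In order of position, 7 BIBR1532 regions came in a row, and later 9 vehicle regions in a row from chr9:28336657 to chr9:28762362, over 426 kb. Among 188 protein-coding genes with at least 10 condition-specific regions in the body, the median longest run of a single list was 4. A run of at least 9 occurred in 4 of them, Opcml included, and Opcml alone had runs of at least 7 in both lists. These cut-offs were the run lengths of Opcml itself, so its place in both counts was fixed. The genes were not matched in number of regions, and a longest run can grow with that number. Opcml had 19 regions in the body, and genes with 10, such as Adgrl3 and Epha6, could not hold runs of 7 in both lists. Each run of Opcml counted as separate regions a pair less than 1 kb apart, and runs were not recounted after merging. The share of BIBR1532 regions differed by 68.9 percentage points between the parts before and past the midpoint. Among 117 genes with at least 5 regions on each side, 3 had a difference as large, Opcml included, and the median was 13.6 points. This arrangement was noticed in the data, which hold no replicate to check it.

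**Figure D1:**
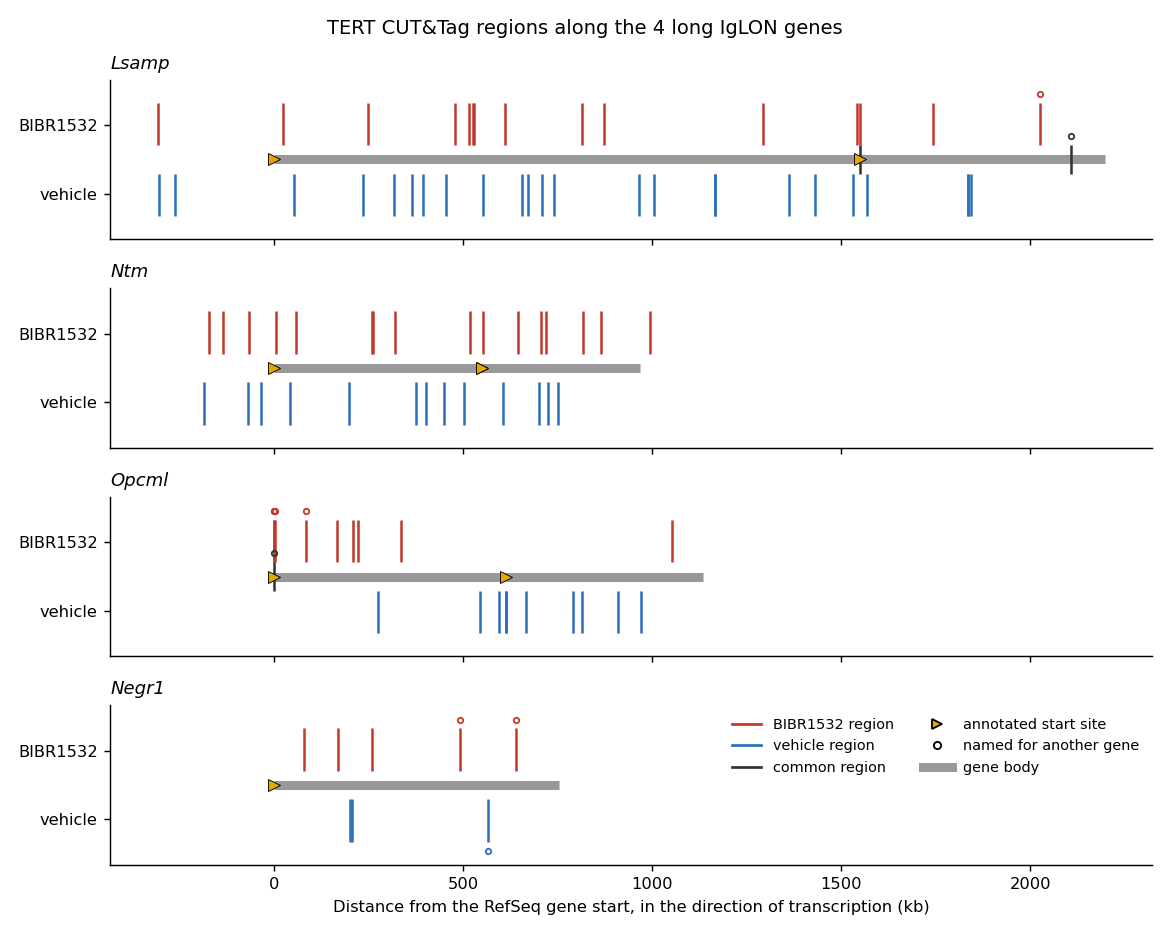
Position of every region along the 4 long IgLON genes, in kb from the RefSeq gene start, with BIBR1532 regions above and vehicle regions below the grey gene body and common regions across it. Arrows mark annotated start sites and open circles the regions that the files name for another gene. In Opcml the first 7 condition-specific regions are all BIBR1532 regions and 9 vehicle regions in a row follow further down. Along Lsamp and Ntm the longest run of a single list is 4.

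The positions also change the count at Opcml. The files name 5 BIBR1532 and 10 vehicle regions for it, and the share of BIBR1532 was 33.3% (11.8 to 61.6). Counted by the RefSeq gene body, there were 9 BIBR1532, 10 vehicle and 1 common region, a share of 47.4% (24.4 to 71.1). The 5 added regions had been named for Spata19 because the annotation lacked the upstream start. Of the 15 regions named for Opcml, 7 were classed as intergenic, and all 15 lay inside the RefSeq body. The highest and widest BIBR1532 region named for Opcml was chr9:28841815-28845593 in intron 3 of 6, 3779 bp wide with a score of 11.5 and on a LINE-1 element (L1_Mus2). The vehicle region of highest score was chr9:28386352-28386588 (8.75), and the widest was chr9:28699380-28701225 (1846 bp). The closest pair of opposite lists named for Opcml was 52.1 kb apart.

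Lsamp had the most regions of the family. The files name 14 BIBR1532, 24 vehicle and 1 common region for it, a BIBR1532 share of 36.8% of the condition-specific regions (21.8 to 54.0). Its vehicle regions also covered more sequence, 15.3 kb, against 5.30 kb for its BIBR1532 regions. Covered sequence follows in part from the number of regions, so it is no separate support for the excess. The widest vehicle regions spanned 4121 and 2329 bp. The 35 named condition-specific regions inside the gene all lay in introns. Intron 1 held 7 BIBR1532 and 11 vehicle regions, intron 2 held 4 and 7, and intron 3 held 2 and 4. That the vehicle list was ahead in each follows in part from the excess for which Lsamp was chosen, so it is no separate support. Introns 2 and 3 each counted as separate regions a vehicle pair less than 1 kb apart. Intron 5 held a BIBR1532 region, chr16:42009589-42009914, named for Mir6540, and no vehicle region. In order of position the lists were mixed, with a longest run of 4 in each list.

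The downstream start of Lsamp, at 41532826 on chromosome 16, was the family's other start with shared signal. The common region chr16:41533343-41533501, 159 bp wide with a score of 0.147, was centred 596 bp after it, in exon 1 of 7 of the transcript that begins there. The BIBR1532 region chr16:41533596-41533907 (score 6.98) began 94 bp past the common one, and a second BIBR1532 region lay 6860 bp before the start. The nearest vehicle region, chr16:41514153-41515036 (score 11.5), ended 17.8 kb before it. At the upstream start, 1548 kb away, the nearest BIBR1532 region was 22.7 kb distant, the nearest vehicle region 53.1 kb and the nearest common region 1434 kb. Another common region, chr16:42091858-42091979 in intron 5 of 8 of Lsamp, was named for Mir6540.

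The vehicle region of highest score in the family was also at Lsamp. It was chr16:41343591-41347711 in intron 2 of 8, 4121 bp wide with a score of 14.1 and on a LINE-1 element (L1M4). It was the widest of the 87 condition-specific regions as well. Among the BIBR1532 regions of Lsamp the highest score was 11.9, at chr16:40798735-40798929 in intron 2, and the widest was chr16:40007092-40007983, with 892 bp. The closest BIBR1532 and vehicle regions of Lsamp, chr16:39677030-39677228 and chr16:39679790-39680057, were 2561 bp apart and lay upstream of the gene. Scores of the lists are the authors' own values and rank regions within a list only.

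Ntm was close to balance. It had 16 BIBR1532 and 13 vehicle regions, of which the BIBR1532 regions were 55.2% (35.7 to 73.6), and no common region. Inside the RefSeq body there were 12 BIBR1532 and 10 vehicle regions. The other 7 were intergenic, 6 of them before its first start and 1 between the ends of Ntm and Opcml. Intron 1 held 6 BIBR1532 and 6 vehicle regions and intron 2 held 4 and 4. The BIBR1532 region of highest score, chr9:29958524-29958971 (10.7), lay 4522 bp inside the gene from its first start. Another BIBR1532 region, chr9:29411114-29411285, lay 1486 bp past the last start, at 29412685. The vehicle region of highest score, chr9:29459950-29460155 (9.12), was 46.6 kb from the nearest start. The widest vehicle region, chr9:29560974-29562050, spanned 1077 bp, and the widest BIBR1532 region, chr9:29903804-29904547, 744 bp. The closest pair of opposite lists was 3925 bp apart.

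Negr1 and Iglon5 had few or no regions. For Negr1 the files name 3 BIBR1532 and 2 vehicle regions, all in intron 1 of 6, at 78.5 to 261 kb from the start. Counted by the gene body there were 5 BIBR1532 and 3 vehicle regions, because 3 regions further down were named for the lncRNA gene 4930592C13Rik. The highest BIBR1532 score was 7.50, at chr3:156822118-156822570, which was also the widest with 453 bp, and both named vehicle regions had a score of 5.19 and at most 167 bp. The closest pair of opposite lists was 30.5 kb apart. At Iglon5 the nearest region of the BIBR1532 list was 6.40 kb from the gene, of the vehicle list 28.6 kb and of the common list 7.31 kb, named for Vsig10l, Etfb and Vsig10l. Among protein-coding genes of 15 to 20 kb, 59.9% were named by at least 1 region of any list. A gene without a region is thus common at this length, and its absence from the lists does not show that TERT is absent.

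**Figure D2:**
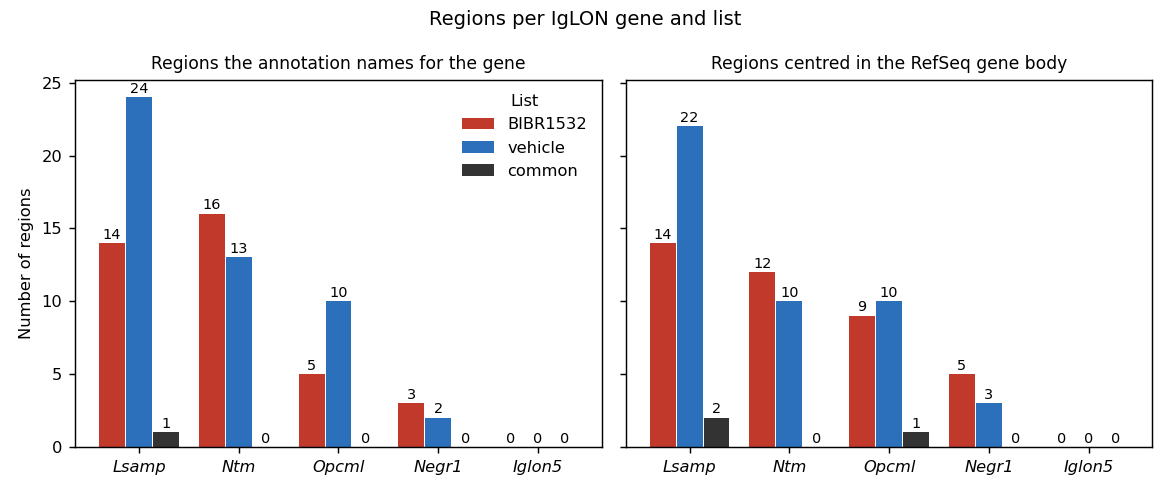
Number of regions per IgLON gene in the BIBR1532, vehicle and common lists, on the left as the deposited annotation names them and on the right by region centres inside the RefSeq gene body. The largest shift is at Opcml, with 5 BIBR1532 and 10 vehicle regions on the left and 9 and 10 on the right.

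Over the family, 38 condition-specific regions were in the BIBR1532 and 49 in the vehicle list. The BIBR1532 share was 43.7% (33.1 to 54.7), and among all other regions of the series it was 46.5%, which lies inside that interval. Of the 3 IgLON genes with at least 10 condition-specific regions, Lsamp and Opcml had at least 1.5 times as many vehicle as BIBR1532 regions, and Ntm passed this fold in neither direction. Of all 297 genes with at least 10 such regions, 32.7% passed it in the vehicle direction and 19.2% in the BIBR1532 direction. Genes with an excess as large as at Lsamp or Opcml were not counted, but passing the fold of 1.5 towards vehicle was frequent. By gene body, 30.3% of 188 protein-coding genes passed it in the vehicle and 19.7% in the BIBR1532 direction. Lsamp passed it towards vehicle with 14 and 22 regions, and Opcml did not.

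Within 10 kb of the family's start sites, a window added after the values were seen, there were more BIBR1532 than vehicle regions. Of the 9 distinct start sites of the family, from RefSeq and the files' annotation together, 5 were the nearest start of a region centred within 10 kb. The regions were 7 BIBR1532, 2 vehicle and 2 common regions, a BIBR1532 share of 77.8% of the condition-specific ones (40.0 to 97.2). Over the whole series the share of regions within 10 kb of a start site was 49.0%, inside that wide interval. Regions at the same start are not independent of each other, which the interval does not cover. By the distance to the start that the files name, 4 BIBR1532 and 2 vehicle regions lay within 10 kb, and the other 3 BIBR1532 regions were all at the upstream Opcml start. Within 1 kb, 16.2% of RefSeq start sites had a common region, 9.14% a BIBR1532 region and 9.48% a vehicle region. Lsamp had a common region within 1 kb of 1 of its 2 starts, and so did Opcml. Common regions were named for 1 of the 5 genes, against 23.9% of all protein-coding genes. By gene body, 2 of the 4 long genes held one, against 32.7% of those of at least 300 kb.

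**Figure D3:**
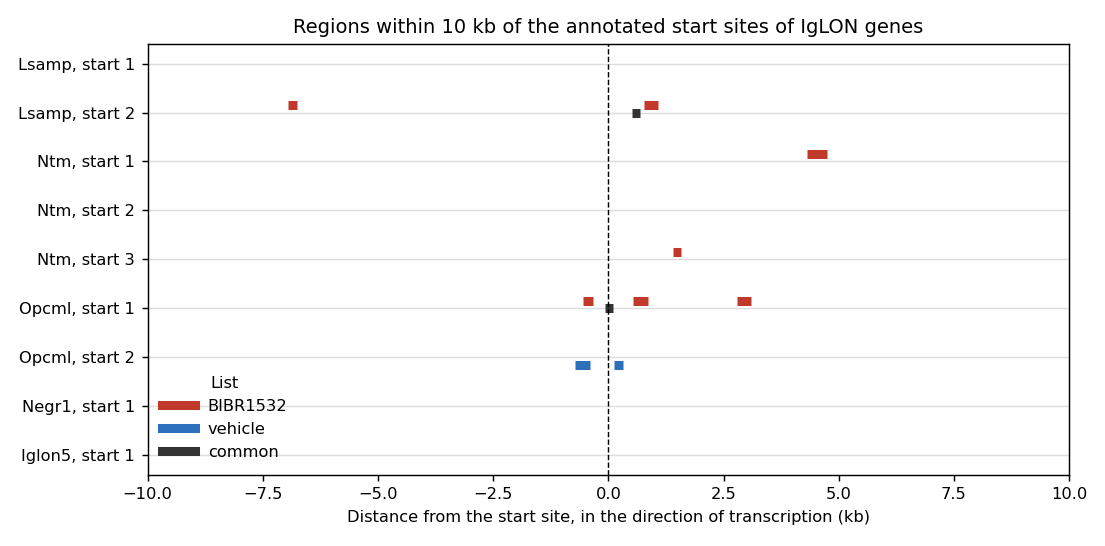
Regions centred within 10 kb of the 9 annotated start sites of the IgLON genes, each drawn at its nearest start, in kb from the start in the direction of transcription; starts are numbered from the 5′ end of each gene and bars show the width of each region. Common and BIBR1532 regions lie at Lsamp start 2 and Opcml start 1, and the 2 vehicle regions lie at Opcml start 2.

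Most family regions were far from a start site and in introns. Of the 87 condition-specific regions, 69 were intronic (79.3%, 69.3 to 87.3), 17 intergenic and 1 at a promoter. Introns made up 43.9% of all other condition-specific regions, and 69.3% of those named for other protein-coding genes of at least 300 kb. The start site used by the files was more than 100 kb away in 63 regions (72.4%), against 21.4% of all other regions and 50.7% of those of other long genes. The median distance was 229 kb in the family, 25.1 kb among all other regions and 102 kb at the other long genes. The other long genes were not matched in length: they begin at 300 kb, and the IgLON genes with regions span 755 to 2197 kb. A longer gene can hold regions further from a start. Whether the distances differ from those at genes of equal length was not tested. Regions of 1 gene are not independent of each other.

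Of the family's regions 21 (24.1%) were annotated to a repeat, 9 in the BIBR1532 and 12 in the vehicle list. The share was 25.4% among all other regions and 28.8% at other long genes. LINE elements took 5 BIBR1532 and 5 vehicle regions, 11.5% in all, against 7.33% of all other regions and 11.5% at other long genes. LTR elements took 2 and 5 (8.05%, against 6.14% of all other regions and 6.82% at other long genes). SINE elements took 2 regions (2.30%, 0.280 to 8.06), against 7.47% of all other regions and 5.45% at other long genes. The median width was 270 bp, against 245 bp among all other regions and 258 bp at other long genes. Regions of at least 500 bp were 24.1% of the family's (15.6 to 34.5), against 15.5% of all other regions and 19.5% at other long genes.

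Most of the regions sat at a single score. In the BIBR1532 list 25 of the 38 family regions had the score 6.34, the most frequent of that list, and in the vehicle list 31 of 49 had the score 5.19. Together these were 64.4% of the family's condition-specific regions (53.4 to 74.4), against 48.6% of all other regions and 57.7% at other long genes. Without them, Lsamp had 4 BIBR1532 and 9 vehicle regions, Ntm 5 and 5, Opcml 3 and 4, and Negr1 1 and 0.

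**Figure D4:**
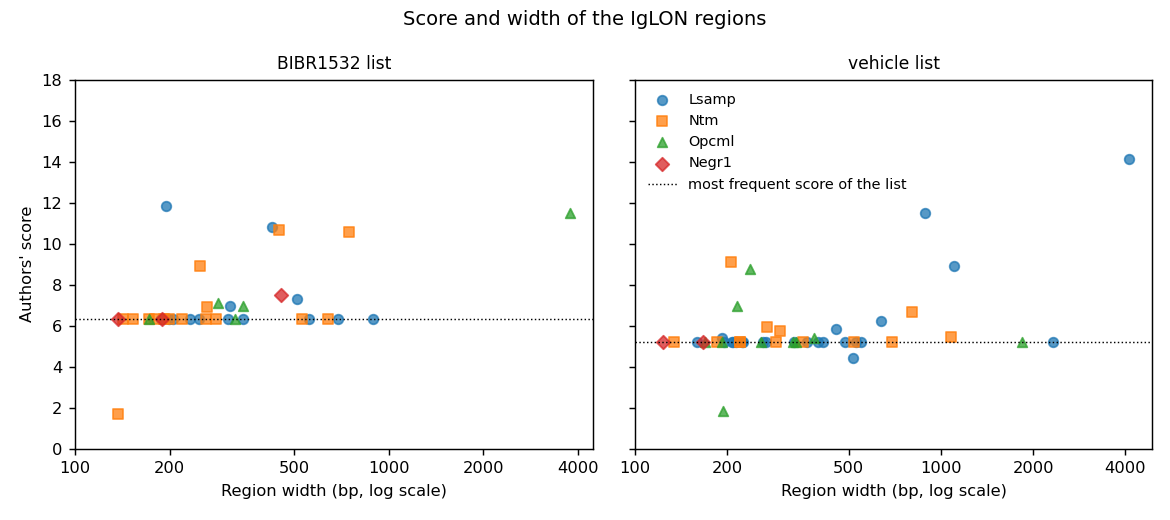
Width in bp (log scale) and authors' score of each condition-specific region named for an IgLON gene, with the BIBR1532 list on the left and the vehicle list on the right; dotted lines mark the most frequent score of each list, 6.34 and 5.19. Most points lie on the dotted line, and the widest and highest vehicle region belongs to Lsamp.

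Per length of gene, Ntm had the most regions of the family and Negr1 the fewest of the 4 long genes. Condition-specific regions per 100 kb of gene numbered 2.99 at Ntm, 1.73 at Lsamp, 1.32 at Opcml and 0.663 at Negr1. The median over 557 protein-coding genes of at least 300 kb was 0.974. Ntm ranked 26 from the top of these genes, Lsamp 121, Opcml 205 and Negr1 351. By region centres in the gene body the values were 2.27 at Ntm, 1.67 at Opcml, 1.64 at Lsamp and 1.06 at Negr1, against a median of 1.28, and the rank of Ntm was 89. Opcml and Lsamp changed order between the measures, and Negr1 was below the median in both. Of these long genes 92.5% were named by at least 1 condition-specific region, so being named at all does not set the family apart.

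**Figure D5:**
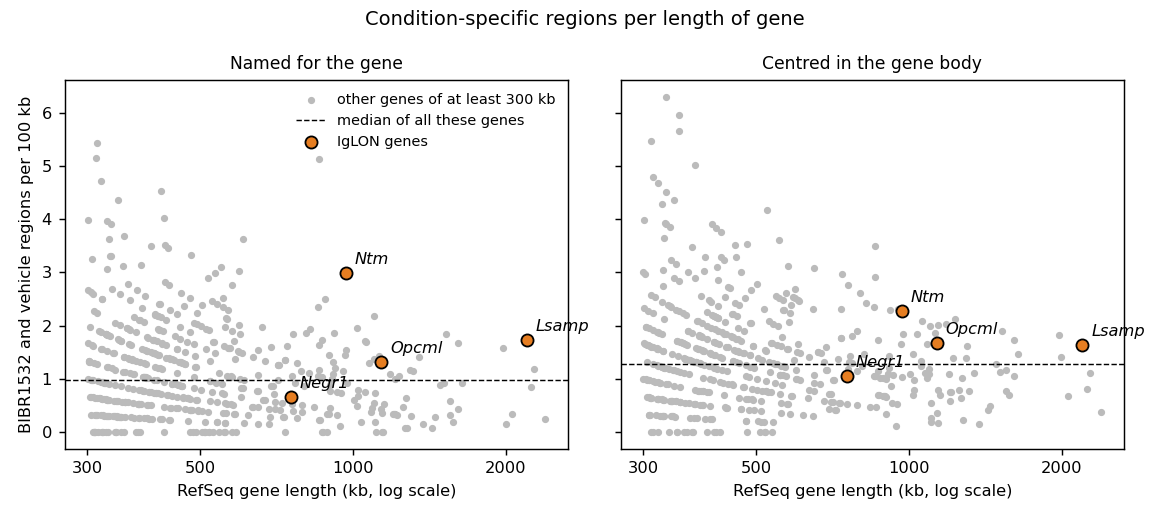
Condition-specific regions per 100 kb against RefSeq gene length (log scale) for protein-coding genes of at least 300 kb, with the IgLON genes in orange and the median of all genes as a dashed line. Ntm lies above the bulk of genes of its length when regions are taken as named, with 2.99 per 100 kb, and closer to it by gene body, with 2.27.

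Long genes with the nearest counts were picked for each member, so their likeness was set by the choice. By the distance between the counts in the 3 lists, over 556 other genes of at least 300 kb, the nearest to Lsamp were the RNA-binding protein gene Celf2 (20 BIBR1532, 24 vehicle and 2 common regions) and the presynaptic adhesion gene Nrxn3 (9, 18 and 1). Their distances to Lsamp were 6.08 and 7.81, against at most 3.16 for the genes picked for the other members. Nearest to Ntm were the receptor phosphatase gene Ptprd (14, 13 and 0) and the synaptic scaffold gene Dlg2 (15, 16 and 0). The ephrin receptor gene Epha6 had the same counts as Opcml (5, 10 and 0), and Cadm2, another adhesion gene, was next (5, 9 and 0). The recombination gene Rad51b and the synapsin gene Syn3 each had the counts of Negr1 (3, 2 and 0).

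The 33 other adhesion genes of the immunoglobulin superfamily set beside the family together had 80 regions in the BIBR1532 and 102 in the vehicle list, so that 44.0% (36.6 to 51.5) were BIBR1532 regions. The neural cell adhesion gene Ncam2 had 8 BIBR1532 and 9 vehicle regions, Mdga2, whose product is also GPI-anchored, 6 and 8, Cadm2 5 and 9, and Ncam1 5 and 7. Of the 7 genes with at least 10 regions, 2 passed the fold of 1.5 in the vehicle direction and 1 in the BIBR1532 direction. Among all 297 genes with at least 10 condition-specific regions the shares were 32.7% and 19.2%, so these counts do not set the adhesion genes apart. The lists do not measure RNA, so the labelled cell type could be set only beside common promoter regions: Snap25 alone of 8 neuronal markers had one, and none of the 20 markers of astrocytes, the oligodendrocyte lineage, microglia and endothelial or mural cells did. Over all protein-coding genes the share was 14.2%, so these counts do not check the labelled cell type.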

How the data were processed

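Per the file headers, pools of 3 libraries were compared in a step named bdgdiff and the regions annotated on mm10 with annotatePeaks.pl. Tools named in the submitters' processing notes, without roles, are MACS2 2.1.2, Bowtie2, Picard and CASAVA 1.8. The score in each list is the authors' deposited value; the scaling of the pools is not stated in these sources. Depth per sample is unknown.

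The UTF-7 lists (BIBR1532, vehicle) were decoded, chromosomes 1 to 19, X and Y kept, and regions assigned by the annotated gene name or, as an alternative, by the region centre in the RefSeq gene body. Of 15356 named genes, 15345 matched RefSeq by gene ID. Start sites came from the files' distances and the RefSeq promoter table. No test was run, and the counting was checked on simulated lists. Alternatives were a score of at least 3, a width of at least 500 bp, merging within 1 kb, leaving out the most frequent score or regions within 10 kb of a start, windows of 1 and 5 kb, and a background of genes of at least 100 kb.

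The family and the gene lists were chosen with earlier results of these data known. By rule, all 5 genes were described, with every common, promoter, exon or UTR region, the highest and widest regions, those closest to a start, the closest opposite pair, the 2 long genes of nearest counts, and up to 4 other adhesion genes with the most regions. Runs, midpoint shares and windows around all start sites were added after the values were seen. The software was matplotlib 3.10.9, scipy 1.17.1, numpy 2.4.6 and pandas 2.3.3 under Python 3.11.15.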

Additional observations from a re-analysis of the deposited data

How the results depend on the processing

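The family's BIBR1532 share lay between 38.1% and 47.1% under the 6 alternatives, inside the interval of the reported 43.7%. Lsamp kept at least 1.5 times as many vehicle as BIBR1532 regions in all 6 alternatives, with shares of 30.8% to 38.9%. Opcml passed that fold as named (33.3%) and lost it among regions of at least 500 bp (50% of 2 regions), without the most frequent score (42.9% of 7 regions) and by gene body (47.4% of 19 regions). The last change came from 4 BIBR1532 regions towards the upstream start that had been named for Spata19. The share of Negr1 was 60% of 5 regions and 100% without the most frequent score, where 1 region was left. The single common region named for the family was lost at a width of at least 500 bp (0 left). Of the family's regions, 1 was of the promoter class, 4 were centred within 1 kb and 6 within 5 kb of the start site the files name. Against genes of at least 100 kb in place of 300 kb, the percentage of genes with fewer regions per 100 kb was 58.8 in place of 78.3 for Lsamp, 82.3 in place of 95.3 for Ntm, 48.7 in place of 63.2 for Opcml and 26.4 in place of 37.0 for Negr1; shorter genes have more regions per length. A score limit of 3 could not be applied to the common list, whose scores are all below it, and Negr1 had no region of at least 500 bp. No paired analysis was possible because the lists come from pooled libraries and carry no replicate numbers, and no library could be left out. The pooling also leaves the depth behind each region unknown.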

Other observations

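At other adhesion genes of the immunoglobulin superfamily, common promoter regions were about as frequent as over all protein-coding genes. Of the 33 other adhesion genes, 5 had a common region of the promoter class, Nectin2, Nectin3, Cadm4, Igsf9b and Sdk2. Among all protein-coding genes 14.2% did, so the count does not set the adhesion genes apart. None of the IgLON genes had one by the deposited annotation. At Opcml the common region over the upstream start would count as one by position, but it was classed as intergenic.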
